A study of Mus musculus with 12 samples.

Results

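The enzymes that make and break down proline were examined in RNA-seq of whole brain, as the 5 mouse genes Prodh, Aldh4a1, Aldh18a1, Pycr1 and Oat. The genes were chosen by symbol for their place in the pathway, not by any measured value, although earlier results of these data were known. All 5 were found among the 19775 genes of the deposited table. The brains came from 12 male C57BL/6N mice at about postnatal day 120. Of these, 4 were wild-type (WT), 4 were heterozygous (HT, Slc6a20a+/-) and 4 were homozygous (HM, Slc6a20a-/-) for a deletion of exon 3 of Slc6a20a. The mice were bred from heterozygous parents, and the sources name no Cre line or cell type that would limit the deletion. Each library came from 1 mouse, and the sources give no other allele or treatment for any group.

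SLC6A20A, the product of the deleted gene, carries proline and glycine across the cell membrane. Inside cells, proline dehydrogenase (Prodh) oxidizes proline in mitochondria to pyrroline-5-carboxylate, and the product of Aldh4a1 oxidizes this intermediate further to glutamate. In the opposite direction, the product of Aldh18a1 turns glutamate into pyrroline-5-carboxylate, and reductases such as Pycr1 and Pycrl (now called Pycr3) complete the synthesis of proline. Ornithine aminotransferase (Oat) links the same intermediate to ornithine, and so to arginine and the urea cycle. In humans, loss of PRODH or ALDH4A1 raises proline in blood (hyperprolinemia), loss of ALDH18A1 or PYCR1 causes forms of cutis laxa, and loss of OAT causes gyrate atrophy of the retina. PRODH lies in the human chromosomal region that is deleted in DiGeorge syndrome. The comparison of the genotypes asks whether the messenger RNAs of these enzymes differ in a brain that lacks one of its proline carriers.

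In the GENCODE M21 annotation of GRCm38, the build to which the reads were assigned, Prodh (ENSMUSG00000003526) occupies positions 18060357 to 18090203 of chromosome 16 (minus strand). Aldh4a1 (ENSMUSG00000028737) is on the plus strand of chromosome 4 from 139622866 to 139649690. The minus strand carries Aldh18a1 (ENSMUSG00000025007) on chromosome 19 from 40550257 to 40588463, Pycr1 (ENSMUSG00000025140) on chromosome 11 from 120635712 to 120643769 and Oat (ENSMUSG00000030934) on chromosome 7 from 132557478 to 132576398. The kit used does not keep the strand of the RNA, so genes that overlap a member matter for its value. Prodh overlaps the neighbouring gene Dgcr6 on the opposite strand, but their exons share 0 bases. Oat lies within the annotated span of Fgfr2, and the pseudogene Gm15801 lies within that of Aldh18a1, each on the same strand and with 0 shared exonic bases. Aldh4a1 shares 1595 of its exonic bases, 32.5%, with the longer gene model Gm21969 on the same strand, which was not analysed here. Reads from these exons that Salmon gave to Gm21969 would be missing from Aldh4a1, and their number was not measured. For the other members, sequence shared with other genes was small. Of the 31-base stretches in the annotated transcripts of each gene, 1.84% in Prodh, 1.53% in Pycr1 and 1.16% in Oat also occurred in transcripts of another gene, and 0 of 4142 did so in Aldh18a1. Pycr1 and Pycrl are paralogs, and Pycrl shared 0 such stretches with any other gene.

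The start region of Pycr1 is shown because this gene is a textbook target of ATF4, the transcription factor of the amino acid starvation response, whose other targets are described further on. It covers 250 bases before and 50 bases after the annotated start (RefSeq, GRCm38.p6, chr11:120643699-120643998, minus strand), printed 5′ to 3′, with capitals marking the letters TGATGNAA in which C/EBP and ATF proteins bind together.
Pycr1: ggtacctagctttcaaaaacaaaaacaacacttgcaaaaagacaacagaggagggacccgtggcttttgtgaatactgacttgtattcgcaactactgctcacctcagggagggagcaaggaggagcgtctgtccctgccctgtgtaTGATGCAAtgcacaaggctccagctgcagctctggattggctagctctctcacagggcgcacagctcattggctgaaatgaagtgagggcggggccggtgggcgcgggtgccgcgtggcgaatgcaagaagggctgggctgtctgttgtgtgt
The match begins at position -103 from the start. Of the start regions of the 5 members, 1 held these letters on either strand, against 1304 of 32851 start regions in the RefSeq table (3.97%). The letters were picked after the sequence had been read, and a match describes the sequence only.

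Values are normalized counts, the number of read pairs assigned to a gene after scaling the libraries to a common level, and each library summed to between 33284951 and 33748623 of them. The authors had already scaled the libraries to each other, so these sums carry no depth. Slc6a20a itself averaged 679.3 ± 70.1 normalized counts in the WT mice, 345 ± 29.1 in the HT mice and 64.5 ± 9.95 in the HM mice (SD, n = 4 mice each). Its 3 genotypes did not overlap, and the HM mean was 9.5% of the WT mean. Markers of neurons (8 of 8), astrocytes (10 of 10) and oligodendrocytes (7 of 7) were all in the table, and the lowest of them by mean was Sox9 with 683.3 normalized counts. The summed markers of the olfactory bulb (7 of 7 genes) ranged from 2282 to 2622 normalized counts in WT mice, from 2104 to 2513 in HT mice and from 2722 to 3489 in HM mice, so that HM brains lay above both other genotypes. This list holds Eomes and Cdhr1, which the study had reported as upregulated in the same HM mice. The sum is therefore not independent of that result. Summed blood markers ranged from 7780 to 21980 in WT, from 6495 to 8717 in HT and from 5859 to 29020 in HM mice. Their part in the differences between genotypes below was not tested. In bulk tissue, fewer cells of a type and less RNA per cell cannot be told apart.

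All members were expressed, but at very different levels. Per kilobase of its longest annotated coding transcript, Oat had the highest level of the 5 in all 12 mice, between 1004 and 1145 normalized counts per kb. Prodh followed with 422.2 to 532 normalized counts per kb, then Aldh4a1 with 261 to 302.9, Aldh18a1 with 155.4 to 209.1 and Pycr1 with 24.3 to 38.6. The ranges of neighbours in this order did not overlap. Among all genes of the table with a known transcript length, the level per kb of Oat was higher than that of 88.3% of genes, and those of Prodh, Aldh4a1, Aldh18a1 and Pycr1 were higher than 72.7%, 60.5%, 50.4% and 22.6%. The order of Aldh4a1 and Aldh18a1 depended on the length used. With the mean length of the coding transcripts in place of the longest, Aldh18a1 had 429.1 and Aldh4a1 281.4 normalized counts per kb.

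Pycrl, another reductase of the last step of synthesis, had between 314.8 and 402.5 normalized counts per kb, between the ranges of Aldh4a1 and Prodh and above that of Pycr1 in all 12 mice. With the mean transcript length it had 364.4 and Pycr1 63.5 normalized counts per kb on average.

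**Figure D1:**
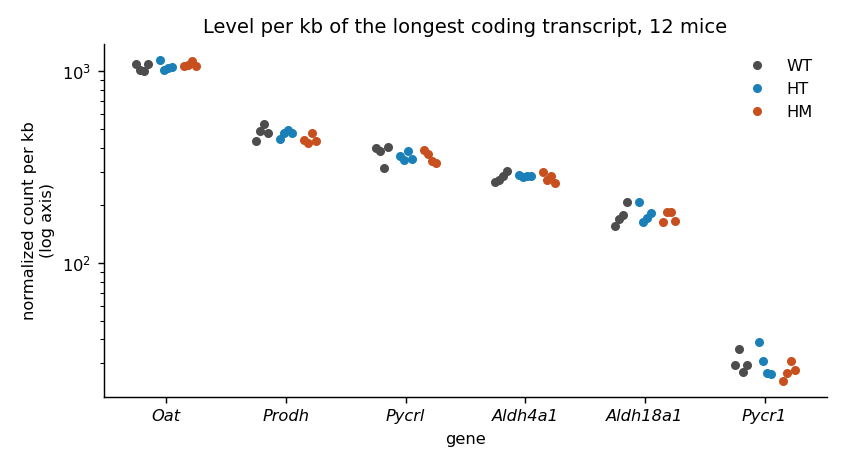
Normalized counts per kb of the longest coding transcript (log axis) for the 5 proline enzymes and the reductase Pycrl, with 1 point per mouse and genotypes in colour. Oat lies between 1004 and 1145 per kb and Pycr1 between 24.3 and 38.6 per kb, and within each gene the 3 genotypes overlap.

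The genotypes were compared for each gene with limma, a linear model fitted across all genes that shares information on their spread, on log2(normalized count + 1). A gene was called when its p, adjusted over all genes tested by the Benjamini-Hochberg (BH) method, was under 0.05. Of the breakdown enzymes, Prodh, the entry step of proline oxidation, had 1033, 1167, 1269 and 1133 normalized counts in WT mice 1 to 4. HT mice had 1059, 1135, 1180 and 1133, and HM mice 1050, 1007, 1142 and 1039. The means were 1151 ± 97.4 in WT mice, 1126 ± 50.1 in HT mice and 1059 ± 57.7 in HM mice (SD, n = 4). WT mouse 1 was lower than 3 of the 4 HM mice, and HM mouse 3 lay among the WT mice, so the genotypes overlapped. The log2 fold change of Prodh was -0.12 in HM against WT mice (SE 0.07, 95% interval -0.26 to 0.03, BH-adjusted p = 0.754 by limma), a change of -7.77% with an interval from -16.6% to 1.96%. Of the 16 pairs of an HM and a WT mouse, the HM mouse was higher in 4 (two-sided exact permutation p = 0.2, where 4 mice against 4 allow no less than 0.0286). The unadjusted p of Prodh was 0.105 over all mice, 0.0192 without WT replicate 1 and 0.0482 without HM replicate 3 (limma). These were the lowest WT and the highest HM mouse, and leaving out any other mouse gave 0.13 (WT replicate 4) to 0.32 (WT replicate 3). The column headers of the table also carry numbers whose meaning the labels do not give. With a block for how these header numbers begin, only WT mice 1 and 2 and HM mice 3 and 4 inform the comparison. The log2 fold change was then -0.01 (limma, unadjusted p = 0.898). In HT against WT mice, Prodh differed by -0.03 (SE 0.06, 95% interval -0.17 to 0.11, BH-adjusted p = 0.964 by limma), and in HM against HT mice by -0.09 (SE 0.05, 95% interval -0.21 to 0.03, unadjusted p = 0.124 by limma). The last p was 0.0356 without HM replicate 3, and from 0.0553 to 0.287 with any other mouse left out (limma).

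Dgcr6, which overlaps Prodh, had a log2 fold change of -0.12 in HM against WT mice (BH-adjusted p = 0.743 by limma, SE 0.06) and of -0.04 in HT against WT mice (SE 0.06). Neither difference passed the threshold. Across the 12 mice its values had r = -0.167 with those of Prodh, given as a description.

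Aldh4a1, which turns the product of Prodh into glutamate, varied less from mouse to mouse than Prodh, with a within-genotype SD of 0.07 against 0.09 on the log2 scale. It had 897.6, 916.6, 957.4 and 1024 normalized counts in WT mice and 978.1, 946.9, 965.8 and 962.6 in HT mice. HM mice had 1009, 913.4, 965.3 and 882.6. The HT values lay close together, with an SD of 12.8 around a mean of 963.3, inside the range of the WT mice. HT against WT mice gave a log2 fold change of 0.02 (SE 0.06, 95% interval -0.10 to 0.14, BH-adjusted p = 0.965 by limma). The value for HM against WT mice was -0.01 (SE 0.06, 95% interval -0.14 to 0.12, BH-adjusted p = 0.985 by limma). The intervals reach from -6.46% to 10.4% in HT and from -9.53% to 9.05% in HM mice. HM differed from HT mice by -0.03 (SE 0.05).

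On the side of synthesis, Aldh18a1, which commits glutamate to proline and ornithine, had 548.1, 601.6, 624.6 and 737.6 normalized counts in WT mice. HT mice had 734.1, 574, 605 and 646.7, and HM mice 574.5, 650.3, 647 and 581. WT mouse 4 and HT mouse 1 were the highest of all 12 mice, and the other 10 lay between 548.1 and 650.3. For HT against WT mice the log2 fold change came to 0.03 (SE 0.10, 95% interval -0.18 to 0.24, BH-adjusted p = 0.977 by limma). The value for HM against WT mice was -0.03 (SE 0.09, 95% interval -0.22 to 0.16, BH-adjusted p = 0.964 by limma). Against HT mice, HM mice differed by -0.06 (SE 0.08, 95% interval -0.23 to 0.12). Within genotypes, Aldh18a1 varied with an SD of 0.147 on the log2 scale, more than 81.9% of the 4844 genes whose mean lay within a factor of 2 of its own.

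Pycr1, which completes proline synthesis in mitochondria, had the lowest level and the widest intervals of the members. Its normalized counts were 85.9, 103.7, 78.4 and 85.6 in WT mice. HT mice had 112.5, 90, 78.1 and 76.4, and HM mice 70.8, 77.8, 90.1 and 80.6. The genotypes overlapped, and HT mouse 1 was the highest of the 12. Against WT, HT mice had a log2 fold change of 0.00 (SE 0.15, 95% interval -0.33 to 0.34, BH-adjusted p = 0.998 by limma). The value for HM against WT mice was -0.14 (SE 0.14, 95% interval -0.45 to 0.16, BH-adjusted p = 0.86 by limma). In percent, the HM interval reaches from -26.6% to 11.8%, the widest of the 5 genes in that comparison. HM against HT mice differed by -0.15 (SE 0.15, 95% interval -0.47 to 0.18), and by -0.03 without HT replicate 1.

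Pycrl had 535.3, 511.5, 421.6 and 539 normalized counts in WT mice. HT mice had 485.5, 463.9, 511.5 and 468.7, and HM mice 519, 497.7, 458.1 and 444.3. The genotypes overlapped, and WT mouse 3 was the lowest of the 12. The log2 fold change from WT was -0.05 in HT mice (BH-adjusted p = 0.94 by limma, SE 0.08) and -0.06 in HM mice (BH-adjusted p = 0.92 by limma, SE 0.09). Without WT replicate 3 these were -0.132 and -0.142, and without WT replicate 4 they were -0.014 and -0.024.

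Oat, which joins the pathway to ornithine, had 2351, 2187, 2161 and 2342 normalized counts in WT mice. HT mice had 2464, 2193, 2235 and 2270, and HM mice 2294, 2310, 2446 and 2294. It had the highest count of the members and the smallest standard errors. Its log2 fold change from WT to HT mice was 0.02 (SE 0.05, 95% interval -0.09 to 0.13, BH-adjusted p = 0.97 by limma). The value for HM against WT mice was 0.05 (SE 0.05, 95% interval -0.05 to 0.15, BH-adjusted p = 0.856 by limma). The intervals reach from -6.07% to 9.27% in HT and from -3.49% to 10.7% in HM mice. HM mouse 3 and HT mouse 1 stood above the other 10 mice, and without HM replicate 3 the log2 fold change of HM against WT mice was 0.03.

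**Figure D2:**
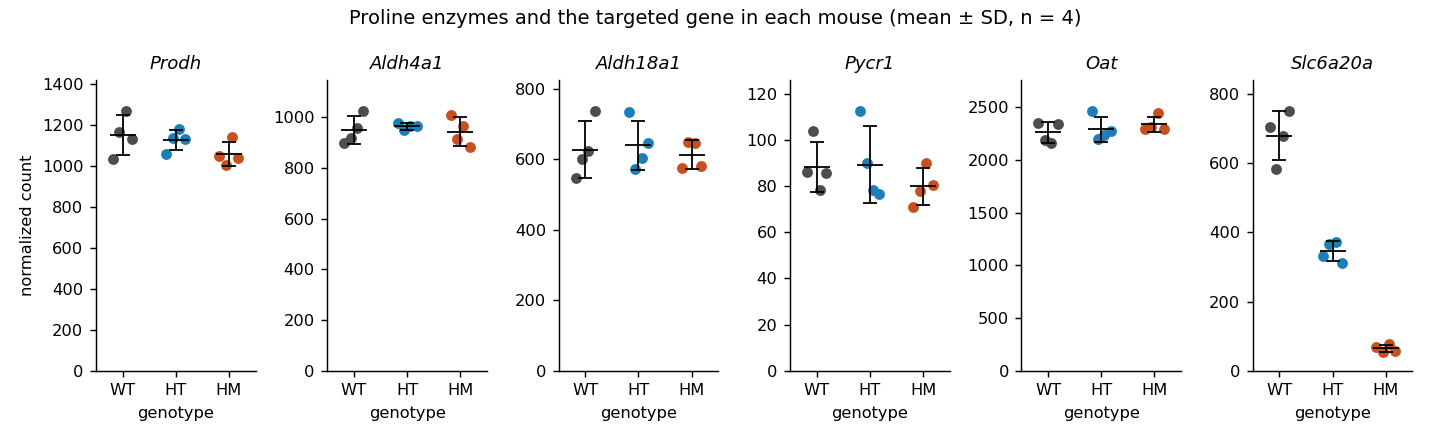
Normalized counts (linear axes from 0) of the 5 proline enzymes and of the targeted gene Slc6a20a, with 1 point per mouse and bars for the mean ± SD of 4 mice. The genotypes overlap for every enzyme, whereas Slc6a20a steps from 679.3 in WT to 345 in HT and 64.5 in HM mice.

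In HT against WT mice, 0 of the 5 members were called (adjusted p under 0.05, limma with BH adjustment), and 0 reached an unadjusted p under 0.05. Over all 18004 genes tested, 0.00555% passed the adjusted threshold and 6.42% had an unadjusted p under 0.05. In HM against WT mice the members called were again 0 of 5, with 0 at an unadjusted p under 0.05, against 0.0111% and 6.99% of 18004 genes. In HM against HT mice, 0 of 5 members passed and 0 had an unadjusted p under 0.05, against 0.00556% and 3.74% of 17986 genes. With so few genes called in the whole table, a count of 0 among 5 does not set the members apart from the rest. The study, which used DESeq2 on the same mice, reported more genes for both mutants against WT than were called here.

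In HT against WT mice, 4 members were above and 1 below WT, with a median log2 fold change of 0.02 and values from -0.03 to 0.03. Each of these 5 changed sign when 1 or more of the mice was left out. In HM against WT mice, 1 member was above and 4 were below, with a median of -0.03 and values from -0.14 to 0.05. In HM against HT mice the median was -0.06, again with 1 above and 4 below. The median over all genes tested was within 0.001 of 0 in each comparison. Comparisons with WT share the same 4 WT mice and are not independent of each other. Of the members, Pycr1 had the widest intervals, the widest running from -20.5% to 26.4% (HT against WT), and Oat the narrowest.

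**Figure D3:**
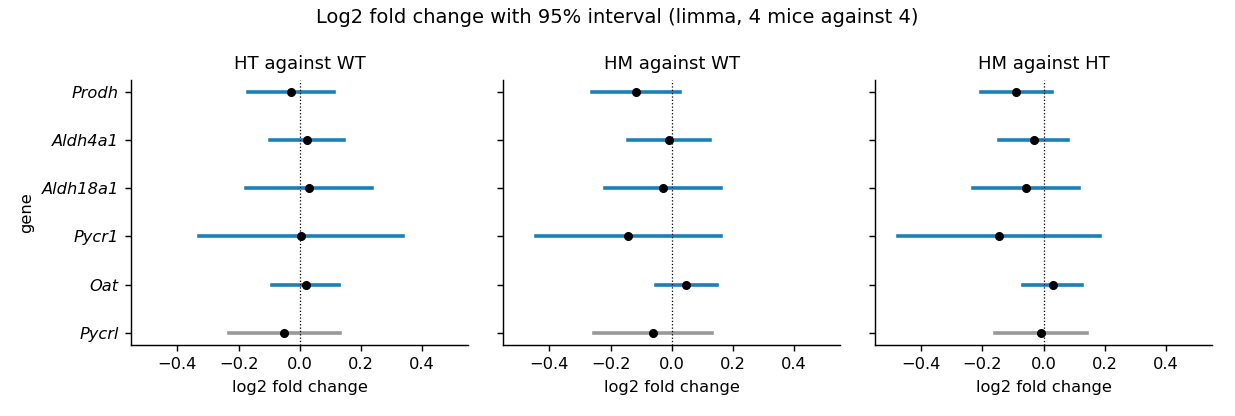
Log2 fold change (points) with its 95% interval from limma (lines) for the 5 proline enzymes in blue and the reductase Pycrl in grey, in the 3 comparisons of 4 mice against 4. Every interval includes 0, and those of Pycr1 are the widest.

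Whether the members rose and fell together from mouse to mouse was examined over their 10 pairs. Pearson's r of log2(normalized count + 1) over the 12 mice was positive in 8 pairs and ranged from -0.54 to 0.55. The highest value was that of Aldh4a1 and Aldh18a1 (r = 0.547, permutation p = 0.0667, Spearman's rho = 0.49, permutation p = 0.11), the 2 aldehyde dehydrogenases that act in opposite directions between glutamate and the shared intermediate. Leaving out the 2 mice most distant from the median of Aldh4a1 gave r = 0.343. The lowest was that of Prodh and Oat (r = -0.542, permutation p = 0.0697, rho = -0.573, permutation p = 0.0546), and r was -0.424 without the 2 farthest mice. After BH adjustment over the 10 pairs, both permutation p-values were 0.348, and 0 of 10 pairs passed with or without adjustment. With values centred within each genotype, r ranged from -0.46 to 0.56. The pair of breakdown enzymes, Prodh and Aldh4a1, had r = 0.311 (permutation p = 0.326, rho = 0.322, permutation p = 0.308), and the pair of synthesis enzymes, Aldh18a1 and Pycr1, had r = 0.36 (permutation p = 0.248, rho = 0.084, permutation p = 0.801). Leaving out the 2 most distant mice gave r = 0.265 for the first pair and 0.094 for the second.

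For each member, the 3 genes with the most similar profile over the 12 mice were taken from the 13125 or 13126 other genes averaging 100 or more normalized counts, so their r was the highest of many and is given as a description. For Prodh these were 1700017B05Rik (r = 0.923), Ezr (0.916) and Plekhh2 (0.863). For Aldh4a1 they were A2m (0.887), Elovl7 (0.877) and Zic5 (0.873), and for Aldh18a1 Myo6 (0.838), Vps35l (0.836) and Chst3 (0.819). Pycr1 was followed most closely by Vps26a (0.9), Esd (0.897) and Abcd2 (0.865), and Oat by Chd7 (0.908), Gm43672 (0.907) and Dusp14 (0.903). Prodh, Aldh4a1, Aldh18a1 and Oat were not among the 3 nearest genes of another member, and Pycr1, with a mean of 85.8 normalized counts, was below the minimum for such genes.

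The wider pathway was described with lists chosen for their biology. The first holds Pycrl, Prodh2 (hydroxyproline dehydrogenase), Hoga1 and L3hypdh (enzymes of hydroxyproline breakdown), of which 3 of 4 were tested and Prodh2 was not analysed here. In all 3 comparisons 0 of the 3 were called by limma with BH adjustment, and 0 reached an unadjusted p under 0.05. Of them, 2 were above WT in HT mice and 1 in HM mice, with median log2 fold changes of 0.02 and -0.04. L3hypdh, which averaged 78.8 ± 5.77 normalized counts in WT mice and 88.1 ± 7.59 in HM mice, had the largest difference of the 3 in HM mice, 0.16 (BH-adjusted p = 0.831 by limma, SE 0.13). In HT mice this was Hoga1, with 0.15 (SE 0.23) at a level of only 24.9 ± 5.08 normalized counts in WT.

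Enzymes and carriers that supply or use glutamate and ornithine form the second list, with 15 of 17 genes tested (Arg1 and Otc were not analysed here). No gene passed the adjusted threshold in any comparison (limma, BH), while 2 genes in HT against WT, 1 in HM against WT and 0 in HM against HT mice had an unadjusted p under 0.05. Above WT were 10 of 15 genes in HT and 9 of 15 in HM mice, with median log2 fold changes of 0.03 and 0.01. The smallest p in both belonged to Slc25a22, a mitochondrial glutamate carrier. Slc25a22 averaged 7261 ± 420.1 normalized counts in WT mice, 8185 ± 614.6 in HT and 7931 ± 571.2 in HM mice. HT mice differed from WT by a log2 fold change of 0.17 (BH-adjusted p = 0.768 by limma, SE 0.06) and HM mice by 0.13 (BH-adjusted p = 0.7 by limma, SE 0.06). The other gene in HT mice was Gad2, which makes the transmitter GABA from glutamate, with 9513 ± 203 normalized counts against 8794 ± 354.3 in WT (0.11, BH-adjusted p = 0.768 by limma, SE 0.04). The lowest p among genes below WT was that of Odc1, ornithine decarboxylase, in HT mice (log2 fold change -0.07, SE 0.05) and of Gls2, a glutaminase, in HM mice (-0.09, SE 0.06). In HM against HT mice the leading genes were Odc1 (0.05) and Glud1, glutamate dehydrogenase (-0.07).

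Genes that put proline into proteins, hydroxylate it or release it from peptides were all tested (17 of 17). None passed the adjusted threshold in any comparison (limma, BH). An unadjusted p under 0.05 occurred for 1 gene in HT against WT, 2 in HM against WT and 1 in HM against HT mice. In HT mice the leading gene was Prep, a prolyl endopeptidase, with 995.8 ± 42.9 normalized counts against 904.1 ± 37.3 in WT (log2 fold change 0.14, BH-adjusted p = 0.77 by limma, SE 0.06). In HM mice it was Xpnpep3, a mitochondrial aminopeptidase that acts before proline, with 682 ± 36.1 against 605.2 ± 28.1 normalized counts (0.17, BH-adjusted p = 0.664 by limma, SE 0.06). Prep had 1001 ± 39.3 normalized counts in HM mice (0.15, BH-adjusted p = 0.664 by limma, SE 0.05). Dpp4, a dipeptidyl peptidase, had the lowest p among genes below WT in both, with log2 fold changes of -0.40 in HT (SE 0.19) and -0.31 in HM mice (SE 0.18), and its WT mice ranged from 93.2 to 186.1 normalized counts. In HM against HT mice the leading genes were P3h3, a collagen prolyl hydroxylase (0.13, SE 0.06), and Xpnpep1 (-0.08, SE 0.04). The median log2 fold change of the list was 0.01 in HT and 0.02 in HM mice.

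Other carriers that accept proline were measured for 9 of 10 genes, and Slc6a18 was not analysed here. None passed the adjusted threshold in any comparison (limma, BH), and 1 gene had an unadjusted p under 0.05 in HT against WT, 0 in HM against WT and 0 in HM against HT mice. This was Slc6a17, a vesicular carrier of neutral amino acids, with 20270 ± 492.8 normalized counts in HT and 18640 ± 1142 in WT mice (log2 fold change 0.12, BH-adjusted p = 0.768 by limma, SE 0.05). Slc38a2, a sodium-coupled carrier of neutral amino acids, had the lowest p among genes below WT in both mutants, with -0.09 in HT (SE 0.05) and -0.06 in HM mice (SE 0.04). Slc1a4 led above WT in HM mice with 0.10 (SE 0.06). Between HM and HT mice, Slc6a15 had the smallest p, with -0.10 (BH-adjusted p = 0.9998 by limma, SE 0.05), and Slc36a4 led in the other direction with 0.04. Slc6a7, the brain's high-affinity proline transporter, had 2810 ± 155.4 normalized counts in the WT mice, 2801 ± 192 in the HT mice and 2809 ± 128.9 in the HM mice.

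Pycr1 and Aldh18a1 are known to be induced by ATF4 when amino acids are scarce, and 19 other genes of that response were all tested. None passed the adjusted threshold in any comparison (limma, BH), and 0 had an unadjusted p under 0.05 in HT against WT, HM against WT or HM against HT mice. Above WT were 10 of 19 in HT and 12 of 19 in HM mice, with median log2 fold changes of 0.01 and 0.02. Asns, asparagine synthetase, had the smallest p above WT in HT mice, with 2413 ± 200.5 normalized counts against 2208 ± 130.9 (log2 fold change 0.13, BH-adjusted p = 0.776 by limma, SE 0.06). Below WT, this was Ddit4 in HT mice (-0.20, SE 0.09). In HM mice, Psph, the last enzyme of serine synthesis, had 471.6 ± 53 normalized counts against 412.2 ± 25.7 in WT (0.19, BH-adjusted p = 0.713 by limma, SE 0.09), and Cth, which makes cysteine, led below WT with -0.25 (SE 0.13). Cth also led in HM against HT mice (-0.20, SE 0.13), with Ddit3 in the other direction (0.12, SE 0.08). The start region of Pycr1 printed above holds the letters TGATGNAA, and like these genes Pycr1 was not called in any comparison (limma, BH-adjusted p from 0.86 to 0.9998).

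**Figure D4:**
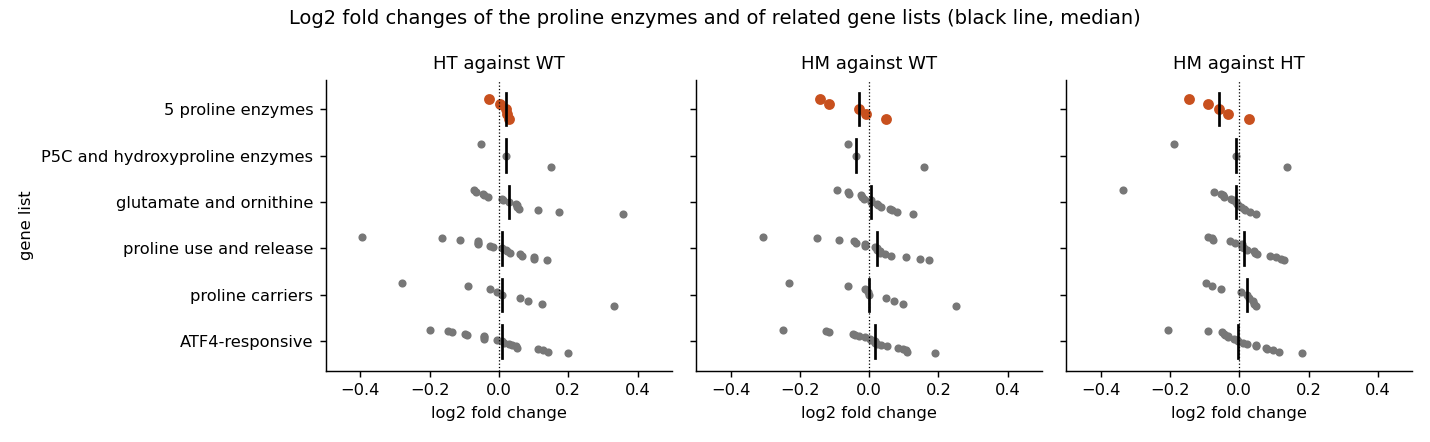
Log2 fold changes of the 5 proline enzymes (red) and of the genes of the 5 related lists (grey, 1 point per gene) in the 3 comparisons, with a black line at each median. The medians lie close to 0 in every panel, and the median of the proline enzymes is 0.02 in HT against WT, -0.03 in HM against WT and -0.06 in HM against HT mice.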

How the data were processed

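RNA-seq libraries (poly-A, TruSeq, paired reads) from 12 mouse brains, 4 per genotype, were used, 1 mouse per library, as replicates. According to the submitters' processing notes and the study's methods, the authors quantified reads with Salmon 1.1.0 on GRCm38 with GC correction, imported gene sums with tximport and normalized them with DESeq2 1.30.1. The deposited values are this signal, normalized counts that are not whole reads, so depth per library is unknown and no count model was fitted. Normalization to a common scale hides any global change in RNA per brain. The columns headed KO were read as the homozygous mice.

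Symbols, positions and lengths came from GENCODE M21 (GRCm38), which held 19758 of 19775 gene identifiers. Each pair of genotypes was tested with limma 3.58.1 (R 4.3.3) after log2(normalized count + 1), letting the prior variance follow expression, over all genes averaging 10 or more in the 8 mice, and with Benjamini-Hochberg (BH) adjustment over all of them at a threshold of 0.05. Fold changes on this scale understate changes of low genes. The fit was tested on simulated data. Group differences of single genes were also compared by two-sided exact permutation tests, and correlations by 100000 permutations. Levels between genes were compared per kb of the longest coding transcript. Python 3.11.15, numpy 2.4.6, scipy 1.17.1 and pandas 2.3.3 were used.

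The 5 members, the 5 related gene lists and the marker lists were chosen with earlier results of these data known. Genes named are the members, Pycrl, Prodh2, Slc6a20a, genes overlapping a member, the gene with the smallest p in each direction for each list and comparison, and the 3 most similar profiles of each member. Slc6a7 and Gad2 were named in addition after their values were seen, and the shared stretches, motif and marker relations were added after seeing the data. Alternatives were another pseudocount, no filter or a stricter one, one fit of 12 mice, blocks for the replicate number or the start of the header number, quantile or median-ratio scaling, other variance priors, another transcript length, and leaving out each mouse in turn. Results for 1 related gene are not reported here.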

Additional observations from a re-analysis of the deposited data

Results flagged for a closer look

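Oat in HM replicate 3 stood apart from the other HM mice. Its 2446 normalized counts compare with 2294, 2310 and 2294 in the other 3, and the gap to the nearest of them made up 0.896 of the range of the group, above Dixon's 95% critical value for 4 samples. Without this mouse, the log2 fold change of Oat was 0.03 in HM against WT mice (limma, BH-adjusted p = 0.933) in place of 0.05. The other members' groups were tested in the same way, 15 groups in all, and chance flags about 1 in 20 groups.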

How the results depend on the processing

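No member was called in any comparison under any alternative (limma, 0 of 5 in each). Of 270 alternative log2 fold changes of the 5 members, 247 kept their direction, 3 had an unadjusted p under 0.05, all for Prodh, and the lowest adjusted p was 0.669. For Prodh in HM against WT mice they ran from -0.167, without WT replicate 1, to -0.068, without WT replicate 3, and came to -0.012 with a block for the start of the header number. The cause was not tested. That block gave -0.068 for Pycr1 and -0.027 for Aldh18a1 in HT against WT mice, 0.025 for Aldh4a1 and 0.094 for Aldh18a1 in HM against WT mice, and -0.019 for Oat in HM against HT mice, each with the opposite sign to the value without it. It informs HM against HT mice by HM replicate 4 alone, set against HT replicates 1 and 2, so its values there are the difference of 1 mouse. Sizes moved by over 1.5 times to -0.068 for Prodh, 0.005 for Aldh4a1 and 0.036 for Oat in HT against WT mice, and to -0.125 for Aldh4a1, -0.16 for Aldh18a1 and -0.316 for Pycr1 in HM against HT mice. Pycrl moved to -0.02, -0.214 and -0.095 in HT against WT, HM against WT and HM against HT mice.

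With each mouse left out in turn, log2 fold changes in HT against WT mice ranged from -0.078 to 0.021 for Prodh, -0.003 to 0.061 for Aldh4a1, -0.112 to 0.082 for Pycr1, -0.039 to 0.109 for Aldh18a1 and -0.017 to 0.039 for Oat. In HM against WT mice they ranged from -0.043 to 0.028 for Aldh4a1, -0.091 to 0.052 for Aldh18a1, -0.202 to -0.064 for Pycr1 and 0.026 to 0.067 for Oat, and in HM against HT mice from -0.125 to -0.065 for Prodh, -0.067 to -0.002 for Aldh4a1, -0.108 to 0.010 for Aldh18a1, -0.214 to -0.03 for Pycr1, 0.007 to 0.065 for Oat and -0.048 to 0.026 for Pycrl. Centred within genotypes, r of Prodh and Pycr1 was -0.207 instead of 0.03.

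Over all genes, the number called was 1 in HT against WT mice (0 without a trend in the variance prior, where Slc6a20a had an adjusted p of 0.145, and 1 to 5 with a mouse left out, with 2 without WT replicate 2 and 5 without HT replicate 3). In HM against WT mice it was 2 (1 with the replicate block, 1 without a trend, 3 with one fit of 12 mice, and 2 to 3 with a mouse left out, with 3 without HM replicate 3 or 4). In HM against HT mice it was 1 (2 without a filter and 1 to 7 with a mouse left out, with 2 without HT replicate 2, 3 without HT replicate 3 or 4, and 7 without HM replicate 2 or 3). For mice with the same replicate number, the deviations from their group means had correlations over genes from -0.0658 to 0.0869. Whether the numbers pair the mice was not tested, and the replicate block left 0 of 5 members called in each comparison. A mouse correlated best with its own number only for replicate 1, in HT against WT and in HM against WT mice. Per kb of the mean transcript length, the levels were 1846 for Oat, 953.8 for Prodh, 429.1 for Aldh18a1 and 63.5 for Pycr1. Precision was lowest for Pycr1, at 85.8 normalized counts on average.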

Other observations

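The members were also set against the markers of 11 cell types or regions, with the mean of each list and the members centred within genotypes, which makes 55 relations over 12 mice. Of these, 4 had a permutation p under 0.05 before adjustment and 0 after it (BH over 55). Oat followed the oligodendrocyte markers with r = 0.771 (permutation p = 0.0203, BH-adjusted p = 0.523, rho = 0.657, permutation p = 0.0321), and r was 0.584 once the 2 mice most distant from the markers' median were left out. It followed the cerebellar markers with r = 0.651 (permutation p = 0.038, BH-adjusted p = 0.523, rho = 0.685, permutation p = 0.0182, r = 0.616 without the 2 most distant mice). Of the cerebellar list, 6 of 7 genes were in the table (Gabra6 was not), and its lowest, Pcp2, averaged only 12.97 normalized counts. Aldh4a1 followed the meningeal markers with r = 0.762 (permutation p = 0.0298, BH-adjusted p = 0.523, rho = 0.776, permutation p = 0.0251, r = 0.842 without the 2 most distant mice). Pycr1 was lower where blood markers were higher, with r = -0.603 (permutation p = 0.0057, BH-adjusted p = 0.313, rho = -0.636, permutation p = 0.0169, r = -0.52 without the 2 most distant mice). For all 55 relations, r ranged from -0.603 to 0.771, and they were computed after the genotype comparisons had been seen.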
